A study of Mus musculus with 11 samples.

Results

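Microglia and other brain macrophages of the embryonic mouse cortex formed a small set of 58 cells among the 17327 cells kept in a scRNA-seq experiment on the RNA-binding protein Syncrip. The cells were chosen by measured values. In the deposited scRNA-seq count tables, a barcode was kept if it had 500 or more genes and if mitochondrial genes took no more than 10% of its UMIs (unique molecular identifiers, which count captured transcripts). It was counted as a member when C1qa, C1qb and C1qc together had at least 5 UMIs and Tyrobp, Fcer1g and Csf1r together at least 2. This took 24 of 8007 cells of the wild-type (WT) library and 34 of 9320 cells of the Syncrip conditional knockout (cKO) library.

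The study compared the dorsal cortex of 1 WT and 1 Syncrip cKO embryo from the same pregnant mouse at E14.5, with E the embryonic day. The mice had a C57BL/6 background, and the knockout carried Syncrip alleles with loxP sites (fl/fl) and Emx1-Cre, which acts in the progenitors of the dorsal forebrain. RNA-seq of neural progenitor cells (NPCs) cultured from E14.5 cortex, 3 WT and 3 Syncrip cKO cultures, was used here only to look for the same genes, and the LACE-seq libraries of Syncrip binding were not analysed here. Each genotype was thus 1 embryo and 1 library, no test between genotypes was possible, and the intervals given below cover counting error only. The WT embryo expressed Y-linked genes and the cKO embryo expressed Xist, so genotype, sex and embryo cannot be told apart. Members of the WT library had 82 UMIs of 4 Y-linked genes and 0 of Xist, and members of the cKO library had 2 and 279.

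Microglia are the resident macrophages of brain tissue. They descend from progenitors of the yolk sac that enter the neural tube early in development, and not from the Emx1 lineage. They depend on the receptor Csf1r and on the transcription factor PU.1 (gene Spi1), clear dying cells, prune synapses and secrete complement C1q. Border-associated macrophages share this origin but sit in the meninges, choroid plexus and around vessels, where they carry Mrc1, Pf4 and Lyve1 in place of P2ry12 and Sall1.

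C1qa, C1qb and C1qc encode the chains of complement C1q, the molecule that starts the classical complement pathway. They lie side by side on the minus strand of chromosome 4 (GRCm38, C1qb at chr4:136880129-136886187, C1qc at chr4:136889804-136893065 and C1qa at chr4:136895917-136898803). PU.1 binds purine-rich DNA, so the letters GAGGAA and their reverse complement TTCCTC were searched in promoter windows of 300 bases, from 250 before to 50 after each RefSeq start site (build GRCm38.p6). The windows of C1qb (chr4:136886151-136886450, minus strand), C1qc (chr4:136892865-136893164, minus strand), the microglial receptor gene Trem2 (chr17:48346151-48346450, plus strand) and the border macrophage genes Pf4 (chr5:90772185-90772484, plus strand) and Mrc1 (chr2:14229164-14229463, plus strand) are shown because these genes set the members, and the border macrophages among them, apart. Capitals mark the letters searched, and each sequence is written 5′ to 3′ along its gene.
C1qb: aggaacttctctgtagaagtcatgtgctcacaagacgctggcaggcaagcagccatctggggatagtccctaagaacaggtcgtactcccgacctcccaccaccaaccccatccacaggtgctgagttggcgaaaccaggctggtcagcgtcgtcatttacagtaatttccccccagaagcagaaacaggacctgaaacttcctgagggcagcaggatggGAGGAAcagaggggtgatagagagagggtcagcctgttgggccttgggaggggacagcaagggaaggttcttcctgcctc
C1qc: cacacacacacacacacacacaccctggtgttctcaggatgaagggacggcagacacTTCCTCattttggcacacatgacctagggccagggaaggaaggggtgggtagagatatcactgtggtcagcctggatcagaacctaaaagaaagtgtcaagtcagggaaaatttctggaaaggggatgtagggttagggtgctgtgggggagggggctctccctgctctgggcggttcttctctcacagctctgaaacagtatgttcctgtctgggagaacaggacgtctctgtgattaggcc
Trem2: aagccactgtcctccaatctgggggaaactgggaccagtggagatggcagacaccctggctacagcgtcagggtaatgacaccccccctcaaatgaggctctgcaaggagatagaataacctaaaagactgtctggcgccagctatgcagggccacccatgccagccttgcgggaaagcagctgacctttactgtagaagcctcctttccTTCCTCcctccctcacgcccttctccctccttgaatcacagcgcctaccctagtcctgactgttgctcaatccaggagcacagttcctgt
Pf4: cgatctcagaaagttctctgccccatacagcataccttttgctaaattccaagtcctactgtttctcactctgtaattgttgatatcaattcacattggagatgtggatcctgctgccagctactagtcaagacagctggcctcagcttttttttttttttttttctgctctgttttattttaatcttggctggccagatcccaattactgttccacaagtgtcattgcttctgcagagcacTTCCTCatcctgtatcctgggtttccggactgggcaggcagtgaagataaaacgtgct
Mrc1: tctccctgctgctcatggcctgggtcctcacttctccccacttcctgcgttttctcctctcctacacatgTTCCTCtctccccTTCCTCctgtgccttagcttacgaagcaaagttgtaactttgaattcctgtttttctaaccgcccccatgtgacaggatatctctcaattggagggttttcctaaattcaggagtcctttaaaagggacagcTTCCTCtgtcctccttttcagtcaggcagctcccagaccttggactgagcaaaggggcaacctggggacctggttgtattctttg

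The letters occurred once in the windows of C1qb (at -30 from the start site), C1qc (at -193), Trem2 (at -40) and Pf4 (at -8), and at -180, -167 and -35 in that of Mrc1. The window of Fcer1g held none. For the 25 genes named below against the other cells, 18 had a window and 12 of those held the letters (66.7%), against 31.3% of the 27025 genes and 28.3% of the 32851 windows in the RefSeq table. The shares were 7 of 9 for a list of border macrophage genes, 5 of 11 for a list of microglial genes and 6 of 14 for myeloid transcription factors. A match of letters is a description of the sequence and not a binding site.

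The values used to choose the members are given here as a description. C1q UMIs per member ran from 8 to 270 in the WT library (median 135) and from 6 to 364 in the cKO library (median 59.5). Tyrobp, Fcer1g and Csf1r together ran from 2 to 213 (median 83.5) and from 2 to 303 (median 27). Members held 3001 C1q UMIs in the WT library (97.4% of the library's total) and 2792 in the cKO library (93.0%). Both shares follow in part from the rule. Among the other cells, 68 in the WT library (0.852%) and 183 in the cKO library (1.97%) had any C1q UMI, and 60 and 168 of these had a single one. Just inside the threshold were 2 WT members with 8 and 10 C1q UMIs and 5 cKO members with 6 to 10, and just outside were 4 WT cells with 3 or 4 and 7 cKO cells with 3 to 5, of which the cell with 5 had 0 UMIs of Tyrobp, Fcer1g and Csf1r. The chains kept a like ratio in both libraries, with C1qb giving 38.4% of C1q UMIs in WT members and 37.0% in cKO members, C1qa 31.2% and 32.4%, and C1qc 30.4% and 30.6%.

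**Figure D1:**
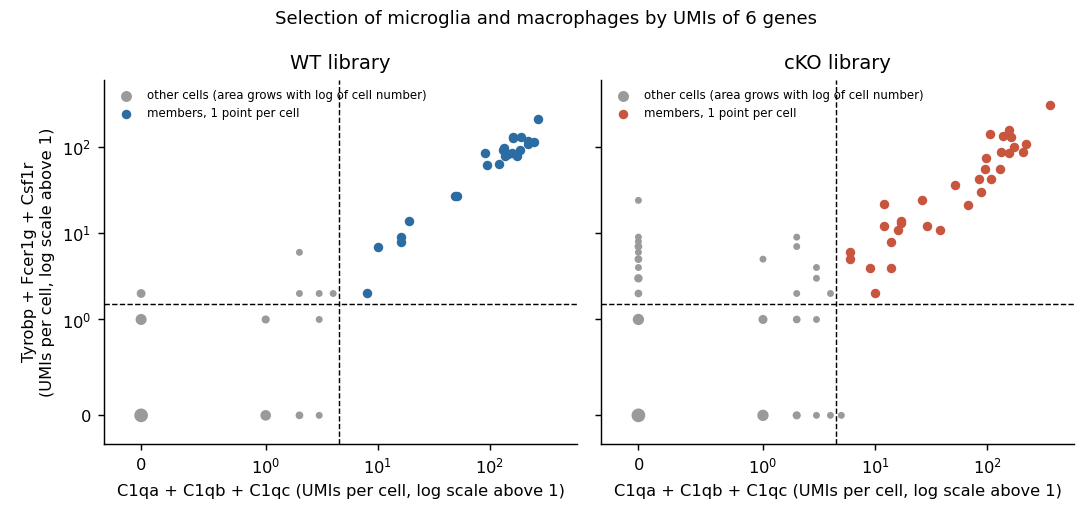
C1q UMIs (C1qa, C1qb and C1qc, horizontal, log scale above 1) against UMIs of Tyrobp, Fcer1g and Csf1r (vertical, log scale above 1) per cell in the WT and cKO libraries, with dashed lines at the thresholds. The 24 WT and 34 cKO members (coloured) lie up and to the right of the lines by the rule, with 6 or more C1q UMIs, while other cells (grey) reach at most 5 C1q UMIs and 24 UMIs on the vertical axis.

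In CPM (UMIs summed over members per 1000000 of all their UMIs, with each transcript counted once at its 3′ end), the chosen genes were at similar levels in both libraries. C1qb was at 3098 CPM in WT and 2913 in cKO members, Tyrobp, the adaptor that carries the Trem2 signal, at 1970 and 2182, Fcer1g, the shared gamma chain of Fc receptors, at 1970 and 2151, and Csf1r at 1024 and 906.

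Members made up 0.300% of the WT cells (Clopper-Pearson 95% interval 0.192 to 0.446) and 0.365% of the cKO cells (0.253 to 0.509), intervals that cover the counting of cells in 1 library each and compare no genotypes. Depth also differed between the libraries. WT members had 1970 to 39928 UMIs (median 14732.5) and cKO members 1072 to 42215 (median 5898), while the medians of all other cells were 11884 and 11179. In the WT library 5 of 24 members had under 5000 UMIs, and in the cKO library 17 of 34. With members of at least 5000 UMIs only, the shares were 0.283% in the WT and 0.219% in the cKO library, so that their order turned. Since the rule needs a number of raw UMIs, shallow cells pass it less easily. The doublet caller Scrublet marked 281 WT and 406 cKO cells and 0 members. Of 22 barcodes present in both libraries, 0 belonged to WT members and 2 to cKO members.

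The label of microglia and macrophages held against genes that the rule did not use. P2ry12, the purine receptor that steers microglial processes, was detected in 19 of 24 WT and 23 of 34 cKO members, against 2.68% and 3.19% of the other cells. Trem2, a lipid receptor of microglia, was detected in 23 and 30 members, against 0.113% and 0.226% of the other cells. Cx3cr1, the fractalkine receptor, was detected in 19 and 28 members. Spi1 was detected in 21 and 28 members and Apoe, the lipid carrier, in 24 and 33. Genes of mature microglia were sparser. Tmem119 was detected in 9 and 11 members, against 0.413% and 0.258% of the other cells. The transcription factor Sall1 was detected in 9 and 14 members and in 11.6% and 13.8% of the other cells, and so marked the members less well. Monocyte genes were near the limit, since a list of 6, among them Ly6c2, Ccr2 and Plac8, summed to 5.37 CPM in WT and 19.8 in cKO members.

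A gene was compared with the other cells when its summed UMIs over all members reached 100, which 1158 genes did. Of these, 447 (38.6%) were at least 2-fold higher in members in both libraries and 58 (5.01%) at least 2-fold lower, with a median log2 ratio over all of 0.62. These are descriptions without a test, since the cells were chosen by 6 genes that other macrophage genes accompany. By a fixed rule of size, 25 genes led the members apart from the 6 that chose them. They included Spi1 with 154 UMIs in WT and 145 in cKO members, against 6 and 20 in all other cells together. Trem2 had 269 and 293 UMIs against 9 and 22, a log2 ratio of 12.96 and 12.02. Ctss, a lysosomal cysteine protease of antigen-presenting cells, had 464 and 399 UMIs against 19 and 45. Crybb1, a lens crystallin gene that immature microglia express, had 132 and 135 UMIs against 3 and 12. Most transcripts of these genes in both libraries thus sat in these 58 cells.

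The other leading genes were surface receptors (Fcrls, C3ar1, Cd33, Cd300c2, Cd86, Adgre1, Siglech, Fcgr1), genes for the chemokines Ccl3 and Ccl4, the membrane proteins Ms4a6b and Ms4a6c, the perforin-like Mpeg1, the actin regulators Rac2 and Aif1, the survival gene Bcl2a1b, the host transcript of a haematopoietic microRNA (Mir142hg), a further crystallin (Cryba4), and the border macrophage genes Lyve1, Mrc1 and Pf4. Their log2 ratios to the other cells, with the count of the other cells taken as at least 3 UMIs, lay between 10.36 and 13.32 in both libraries.

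Gene lists are given by the genes that reached 100 UMIs summed over members, a filter that macrophage genes pass mainly by being high in members, so that the counts are descriptions. All 10 of the 14 microglial genes and all 6 of the 11 border macrophage genes that reached 100 UMIs were at least 2-fold higher in members in both libraries, with median log2 ratios of 10.03 and 10.03. The lysosome list had 19 of 20 genes with 100 UMIs, all 19 higher (median 5.31), led by Ctsd, Ctsb, Lgmn and the protease inhibitor Cst3. Lipid and iron genes had 7 of 10, all 7 higher (median 5.21). Apoe reached 9983 CPM in WT and 12346 in cKO members against 17.6 in the other cells of the WT library, and the ferritin light chain Ftl1 reached 7739 and 9329 CPM against 2038 and 2040. Among 18 myeloid transcription factors, 11 reached 100 UMIs and all 11 were higher (median 6.06), with Runx1 at 382 and 432 CPM, Irf8 at 210 and 189, and Maf at 959 and 1090. Beside these stands the share of 38.6% over all genes tested. All 7 phagocytic receptor genes with 100 UMIs (median 8.80) and all 3 of the antigen presentation list (median 6.99) were higher, the last led by B2m at 1182 and 1157 CPM.

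The chemokine and immediate early lists were also high. The 4 chemokine and cytokine genes with 100 UMIs, of 18 listed, were higher (median 11.45). Ccl4 was at 1096 CPM in WT and 1609 in cKO members, and Ccl3 at 895 and 1259, against under 1 CPM in the other cells. Both encode chemokines that attract leukocytes, and they were unevenly spread, with a UMI of Ccl3 in 17 of 24 WT and 18 of 34 cKO members and of Ccl4 in 15 and 17. The cell with the most Ccl4 per 10000 UMIs had 52.8 in the WT and 88.5 in the cKO library, while the median member had 2.04 and 0.459. Of the 10 immediate early and stress genes with 100 UMIs, 9 were at least 2-fold higher than in the other cells (median 3.43). Beside this count and that of the chemokine list stands the share of 38.6% over all genes tested. The summed list was at 7806 CPM in WT and 5408 in cKO members against 938 and 757 in the other cells. Whether tissue dissociation raised these genes was not tested.

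Genes lower in members included those of neurons. A list of 10 excitatory neuron genes summed to 1397 CPM in WT and 1010 in cKO members against 7691 and 7547 in the other cells. Of its genes, 4 reached 100 UMIs and 3 of these were at least 2-fold lower (median -3.05), against 5.01% of all genes tested. Nrp1 was the most abundant in both libraries, with 91 and 68 UMIs. Neuronal RNA was not spread evenly. The deepest WT member, with 39928 UMIs, held 235 of these UMIs, 45.2% of all in WT members, and a cKO member of 14381 UMIs held 138 with 12 C1q UMIs, while the median was 7.06 and 7.69 per 10000 UMIs. RNA of vessel cells was close to absent, with an endothelial list at 13.4 and 16.9 CPM, a pericyte list at 0 and 2 UMIs and a meningeal fibroblast list at 1 UMI in each library. Red blood cell genes stood at 99.4 and 147 CPM against 731 and 923 in the other cells.

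Members differed among themselves along a border macrophage axis. After thinning each member to 2000 UMIs, or taking it whole below that, 6 of 24 WT members (Clopper-Pearson 95% interval 9.77% to 46.7%) and 6 of 34 cKO members (6.76% to 34.5%) had at least as many UMIs of the border list as of the microglial list, and are called border-high. With members of at least 5000 UMIs only, the shares were 31.6% and 29.4%. In WT border-high members the border list took 197 to 317 UMIs per 10000 (median 230) against 0 to 37.0 (median 1.40) in the others. In cKO border-high members it took 18.8 to 193 (median 155) against 0 to 21.3 (median 2.34). The ranges were apart in the WT library and overlapped in the cKO library through the cell of 14381 UMIs that was rich in neuronal RNA. The list that made the groups cannot also test them, so the values of its genes are a description.

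Pf4, a chemokine stored in platelets and made by border macrophages, separated the members. The 6 WT border-high members had 71, 78, 114, 126, 148 and 161 UMIs of Pf4, the 6 cKO ones 16, 21, 51, 60, 89 and 116, and no other member had more than 1. Lyve1, the hyaluronan receptor, had 2 to 65 UMIs in WT and 0 to 39 in cKO border-high members and 0 in the others. Mrc1, the mannose receptor, was less exclusive, with 11 to 133 and 2 to 124 UMIs against up to 45 and 19 in the others. Cd163, the haemoglobin scavenger receptor of mature border macrophages, was at 0 in all members.

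**Figure D2:**
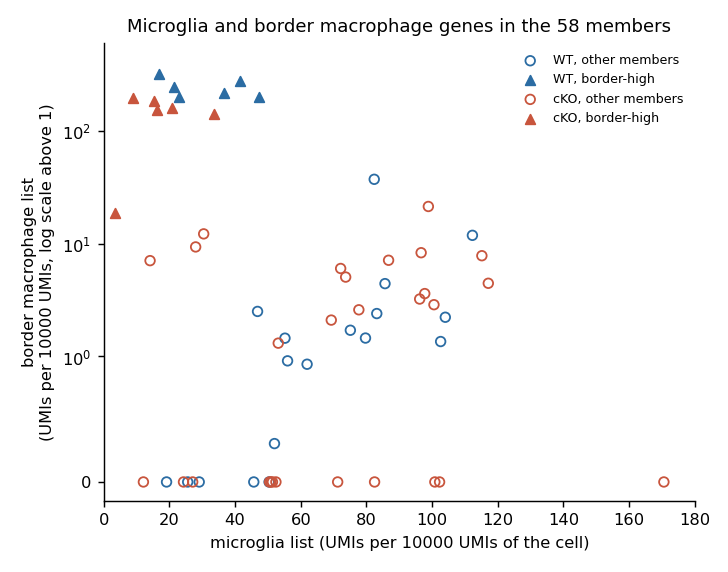
UMIs per 10000 of the microglial list (horizontal) and of the border macrophage list (vertical, log scale above 1) in each of the 58 members, by library (colour), with border-high members as filled triangles and others as open circles. The 6 WT and 5 of the 6 cKO border-high members lie above 100 on the vertical axis, while the other members lie at 37.0 or below.

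Among genes outside the lists, those named for border-high members had been chosen for the same direction in both libraries. Igfbp4, an insulin-like growth factor binding protein, was at 745 CPM in WT and 632 in cKO border-high members against 51.3 and 34.9 in the others, a log2 ratio of 3.86 (95% interval 3.02 to 4.80) and 4.18 (3.16 to 5.37). Colec12, a scavenger collectin, was at 805 and 559 CPM against 3.67 and 31.0, and Itsn1, an endocytic scaffold, at 362 and 445 against 58.7 and 31.0. F13a1, the coagulation factor XIII A chain and a gene of the border list, had 308 and 238 UMIs, all of them in border-high members.

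Another set of genes was on the side of the other members. Sparc, a matrix protein gene, had 172 and 124 UMIs in WT and cKO members that were not border-high and 0 in border-high members of either library. The same held for Serpine2, a serine protease inhibitor, with 68 and 105, and for Csf1, the ligand of Csf1r, with 100 and 124. Plxdc2 (177 and 235 UMIs against 0 and 2), the tetraspanin Cd9 (129 and 239 against 2 and 0), Mpeg1 (106 and 150 against 0 and 4) and the immediate early gene Egr1 (337 and 217 against 4 and 21) were further named genes on this side. The immediate early list as a whole was at 3311 CPM in WT and 4297 in cKO border-high members and at 9444 and 5824 CPM in the others.

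A further difference followed depth. Malat1, a nuclear non-coding RNA that is abundant in nearly all cells, was under 25 UMIs per 10000 in 7 of 24 WT members and 14 of 34 cKO members, a limit chosen after the values were seen, and in 7.05% and 4.93% of the other cells. These Malat1-poor members had median depths of 2738 and 3189.5 UMIs against 18090 and 14905.5 in the others, and lower mitochondrial shares (0.421% and 1.76% against 2.76% and 2.97%). The microglial list, which the rule did not use, was at 3540 CPM in WT and 6001 in cKO Malat1-poor members against 6232 and 6999 in the others. The immediate early list was at 1180 CPM in WT and 350 in cKO Malat1-poor members against 8275 and 6103 in the others, and 5 of 7 and 10 of 14 had no UMI of Ccl3 or Ccl4, against 0 of 17 and 2 of 20 of the others. Whether these barcodes are damaged or partial cells was not tested.

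**Figure D3:**
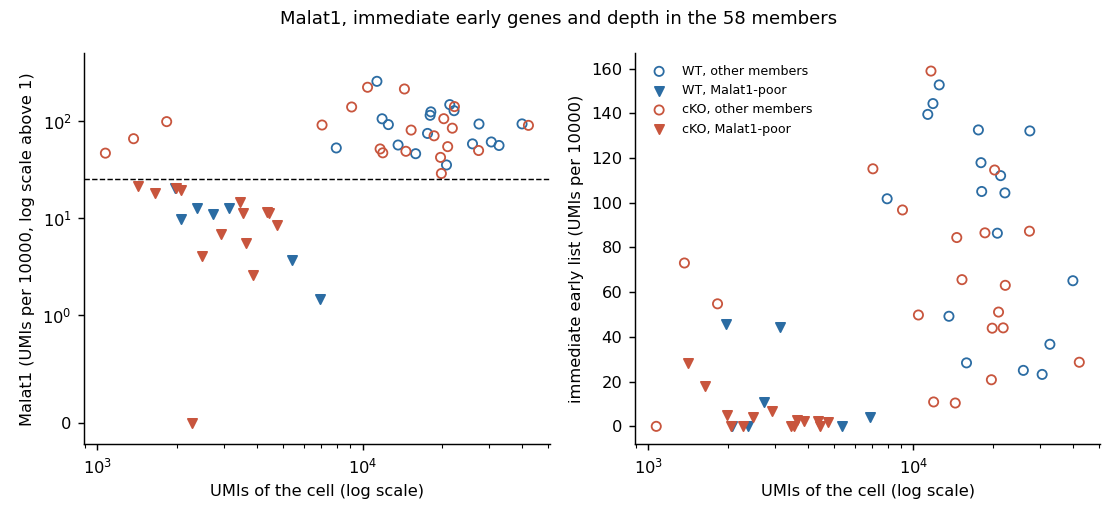
Malat1 (left, log scale above 1, with a dashed line at 25) and the immediate early list (right), both in UMIs per 10000, against the UMIs of the cell (log scale) for the 58 members by library and Malat1 class. The 21 Malat1-poor members (filled) have at most 6886 UMIs. Before scaling to 10000, each has at most 14 raw UMIs of the immediate early list, a count that low depth limits.

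Some members carried UMIs of cell cycle genes. After thinning to 2000 UMIs, 7 of 23 WT members (30.4%, Clopper-Pearson 95% interval 13.2 to 52.9) and 5 of 28 cKO members (17.9%, 6.06 to 36.9) had at least 2 UMIs of Mki67, Top2a, Cdk1, Ccnb2 and Cenpf, all genes of late cell cycle, and 1 and 6 shallower members were left out. Of these, 5 of 7 and 3 of 5 were Malat1-poor. Without thinning, the counts were 12 of 24 and 15 of 34. The intervals overlap widely, and the share depended on the number of UMIs compared. Progenitors express the same genes and free RNA can add UMIs, and its part in these calls was not tested.

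Receptors by which microglia read the developing cortex were present, with some ligands in the members themselves and others in the cells around them. Other cells were grouped by UMIs of marker genes into 37 WT and 31 cKO endothelial cells, 31 and 18 pericytes, 12 and 22 meningeal fibroblasts, 573 and 834 apical progenitors, 81 and 128 intermediate progenitors, 602 and 828 cells of ganglionic eminence type and 3903 and 4171 excitatory neurons. The endothelial group was mixed with red blood cell RNA, at 99711 CPM in WT and 52496 in cKO cells. Its endothelial list was at 10947 and 8074 CPM. Il34, a ligand of Csf1r, had 0 UMIs in members and was at 45.4 and 55.9 CPM in pericytes and at 11.7 and 38.9 in fibroblasts, on 2 to 16 UMIs per group. Csf1, the other ligand, was at 367 and 481 CPM in members that were not border-high, above its level of 129 and 135 in fibroblasts.

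The transforming growth factor β axis had both sides in members. Tgfbr1 was at 382 CPM in WT and 243 in cKO members, Tgfbr2 at 223 and 195, and the ligand gene Tgfb1 at 185 and 192, with 90.2 and 131 in endothelial cells. Receptors and ligand were thus in the same set of cells, though vessel cells also held the ligand. Tgfb2 was in apical progenitors, at 81.9 and 61.5 CPM. Cx3cr1 was at 1056 and 1236 CPM in members, while Cx3cl1, its ligand, was at 1.18 and 1.47 in the other cells. Mertk, a receptor for dying cells, was at 255 and 454 CPM in members and Gas6, which bridges it to those cells, at 379 and 395, with 1067 and 518 in border-high members. Mertk and Gas6 were thus both at a higher level in members than in the listed groups of other cells. Sirpa, the receptor for the signal Cd47, was at 441 and 720 CPM in members, and Cd47 was at 107 and 104 in members and 94.3 and 98.2 in the other cells. Cd200r1, an inhibitory receptor, had 10 and 6 UMIs, of which 9 and 6 lay in border-high members, and had 0 in the other cells. Cxcl12 had 0 UMIs in members and was highest in fibroblasts, at 1390 and 1205 CPM.

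**Figure D4:**
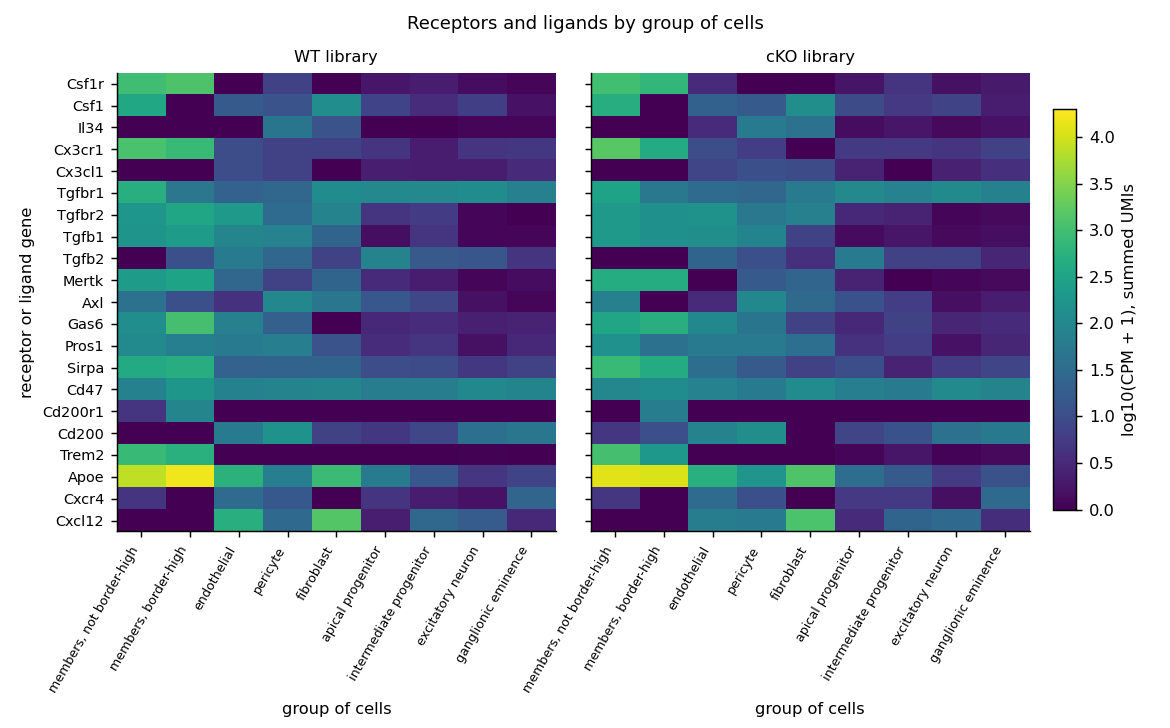
Levels of receptor and ligand genes (rows) by group of cells (columns) in the WT and cKO libraries, as log10 of CPM of summed UMIs plus 1 (colour). Csf1r, Cx3cr1, Mertk, Trem2 and Apoe are high in the 2 columns of members, and Il34 and Cxcl12 are at 0 there and above 0 in pericytes and fibroblasts.

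Members were then compared between the genotype libraries. Of the 1158 genes, 9 (0.777%) were at least 2-fold higher and 14 (1.21%) at least 2-fold lower in cKO members, with a median log2 ratio over all of 0.018. By the mean of CPM per cell the counts were 14 and 34, and with each member left out in turn they ran from 7 to 12 and from 8 to 21. The 9 included Xist, and 2 of the 9 and 8 of the 14 had over 25% of their UMIs in 1 member. No test was possible. The named genes are the most different of those that met the naming rules, with at most 25% of their UMIs over both libraries in 1 member. Within a library, 1 member could hold more. Examples are Slc40a1 (40.0% in WT and 34.6% in cKO), Gatm (34.8% in WT) and Slc12a2 (33.3% in cKO). The named genes are not shown to have changed.

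Syncrip itself was low in members. It had 55 UMIs in 16 WT members and 57 in 19 cKO members, or 148 and 161 CPM against 287 and 312 in the other cells, a log2 ratio of cKO over WT members of 0.12 (-0.44 to 0.68). The counts read the 3′ end of the transcript, which lies outside the deleted exons, so these levels check nothing about the deletion. Emx1, whose promoter drives the Cre, had 2 and 0 UMIs in members.

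The named genes lower in cKO members included 4 immediate early genes. Junb, a subunit of the transcription factor AP-1, had 370 UMIs (994 CPM) in WT and 144 (406 CPM) in cKO members, a log2 ratio of -1.29 (-1.58 to -1.01), against -0.43 in the other cells. Ier2 had 183 and 82 UMIs (-1.09, -1.48 to -0.70), the phosphatase gene Dusp1 137 and 62 (-1.07, -1.53 to -0.63) and Jund 268 and 133 (-0.94, -1.25 to -0.63). Of the 10 list genes with 100 UMIs, 9 were below 0 (556 of the 1158 genes tested were) and Atf3 was above, with 256 and 274 UMIs. Junb, Ier2 and Dusp1 were at least 2-fold lower, 3 of 10 against 1.21% of all genes tested, and the summed list had a log2 ratio of -0.53 (-0.61 to -0.45), beside a median of 0.018 for all genes. In border-high members the summed list was at 3311 CPM in WT and 4297 in cKO members, an order that rests on 1 cKO cell. The cKO border-high member of 27384 UMIs had 239 UMIs of the list, and the others had 107, 41, 15, 13 and 0. Over all border-high members Junb was at 181 and 269 CPM, Ier2 at 121 and 135, Dusp1 at 252 and 311 and Jund at 533 and 518. The same cell held 20 of the 30 Dusp1 UMIs in cKO border-high members. In members that were not border-high, the list was at 9444 CPM in WT and 5824 in cKO, and Dusp1 had a log2 ratio of -1.73. The list was also lower in the cKO library in several groups of other cells, at 3460 CPM in WT and 1154 in cKO endothelial cells (mixed with red blood cell RNA), 3485 and 2227 in fibroblasts, 1362 and 875 in intermediate progenitors and 938 and 757 in all other cells, but at 2164 and 3397 in pericytes. Per cell, members of the libraries overlapped. Among members that were not Malat1-poor, the list took 23.2 to 153 UMIs per 10000 in 17 WT members (median 104) and 0 to 159 in 20 cKO members (median 58.9), and the medians of Junb were 10.1 and 2.73. The cKO library had more Malat1-poor members, and without those the log2 ratio of the list was -0.44. The other named genes on this side were Hspa5, the chaperone of the endoplasmic reticulum (228 and 109 UMIs, -0.99), the superoxide dismutase Sod1 (70 and 32, -1.06), Gatm, which acts in creatine synthesis (92 and 39, -1.17), and Lcorl (80 and 31, -1.30). With members thinned to 2000 UMIs, Dusp1 stood at -2.51, Junb at -1.61, Gatm at -1.13, Jund at -1.11, Sod1 at -0.77, Ier2 at -0.38 and Hspa5 and Lcorl at -0.28 each.

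Genes higher in cKO members came in part from a list that marks microglia of developing axon tracts. Lpl, lipoprotein lipase, had 44 UMIs in WT and 99 in cKO members (log2 1.24, 0.71 to 1.79), Lgals1, galectin-1, 92 and 185 (1.08, 0.71 to 1.46), and Cd9 131 and 239 (0.94, 0.63 to 1.26). In the other cells the log2 ratios of cKO over WT were 0.74 for Lpl, 0.55 for Lgals1 and -0.27 for Cd9. Most Lgals1 UMIs lay in border-high members, 74 in the WT and 125 in the cKO library. Without border-high members, the log2 ratio of Lgals1 was 1.82 (1.04 to 2.67), on 18 WT and 60 cKO UMIs. A single cKO member, of 42215 UMIs, held 29 of those 60. Of the 10 list genes with 100 UMIs, 9 were above 0 (51.9% of all genes tested were) and 3 were at least 2-fold higher (Lpl, Lgals1 and Fabp5, against 0.777% of all genes), and the summed list was at 4227 CPM in WT and 6526 in cKO members (0.63, 0.53 to 0.72). A single cell held much of this. The deepest cKO member, with 42215 UMIs, had 744 of the 2312 list UMIs in cKO members (32.2%) and UMIs of 13 of the 14 genes found in the files. It had 306 of 435 UMIs of the fatty acid binding protein gene Fabp5 and 27 of 28 of Spp1 (osteopontin). Without it, the log2 ratio of the list was 0.25 (0.15 to 0.35), that of Fabp5 turned from 1.29 to -0.28, and those of Lpl and Lgals1 were 1.22 and 1.02. The deepest WT member held 83 of the 187 Fabp5 UMIs in WT members (44.4%), and without the deepest member of each library the log2 ratio of Fabp5 was 0.40 (0.02 to 0.79) and that of the list 0.41 (0.30 to 0.52). High totals of the list were not limited to the cKO library. The list took 176 UMIs per 10000 in the deepest cKO member, 171 in a cKO cell of 7033 UMIs and 168 in a WT cell of 11326 UMIs. The genes behind these totals differed. Spp1 and Gpnmb had 27 and 3 UMIs in the deepest cKO member and 0 in the other cells named here. Ctsl gave 112 of 744 list UMIs in the deepest cKO member and 78 of 190 in the WT cell.

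The remaining named genes higher in cKO members were the chloride transporter gene Slc12a2 (34 and 96 UMIs, log2 1.57, 0.99 to 2.18), the iron exporter gene Slc40a1 (35 and 81, 1.28), the adhesion gene Cadm1 (39 and 85, 1.19), the kinase gene Cdk8 (69 and 140, 1.09) and the myosin gene Myo1f (43 and 80, 0.97). Border-high members held 28 and 52 of the Slc40a1 UMIs, and without these members its log2 ratio was 2.13, on 7 and 29 UMIs. Slc12a2 was detected in 14 WT and 15 cKO members, with a highest value of 15.8 per 10000 UMIs in the cKO library, so it was absent from the counts of many cells on both sides. With each member thinned to 2000 UMIs, which leaves few UMIs per gene, Cadm1 stood at 3.72, Lpl at 1.83, Lgals1 at 0.89, Cd9 at 0.58, Cdk8 at 0.54, Slc12a2 at 0.37 and Slc40a1 at 0.20, and Myo1f turned to -0.61. The lysosomal protease genes Ctsd (827 and 1446 UMIs, 0.88) and Ctsb (824 and 1248, 0.67) were higher without reaching 2-fold, and stood at 0.50 and 0.48 without the deepest cKO member.

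List sums summarised the comparison. The microglial list was at 6054 CPM in WT and 6879 in cKO members (log2 0.18, 0.10 to 0.27), with 8 of 10 genes above 0, where 51.9% of all genes tested lay. The border list was at 6186 and 4191 CPM (-0.56, -0.66 to -0.47), with 0 of 6 above 0, and its sum turned to 0.31 (-0.06 to 0.67) without the border-high members, which are 6 cells in each library. Lysosomal genes (0.28, 0.23 to 0.33, 14 of 19 above 0), lipid and iron genes (0.30, 0.26 to 0.34) and chemokine genes (0.38, 0.27 to 0.48, 4 of 4) were above 0 in the summed UMIs, while G2/M genes were below (-0.51, -0.63 to -0.39). A cKO member of 22200 UMIs held 379 of the 1519 chemokine UMIs in cKO members, and the chemokine ratio was 0.055 without it and turned to -0.099 without cycling members. A WT member of 27477 UMIs held 36.8% of the G2/M UMIs in WT members, and the G2/M ratio was 0.04 (-0.09 to 0.17) without it and 0.33 without cycling members. An S phase list of 43 genes, each under 100 UMIs, was at -0.05 (-0.23 to 0.12). It stood at 1.17 (0.90 to 1.43) without border-high members. Myeloid transcription factors (0.07, -0.02 to 0.16) and antigen presentation genes (0.03, -0.14 to 0.20) had intervals that held 0. None of these sums differed by 2-fold over all members. The border list did with each member weighted equally (the mean of CPM per cell, -1.18) and with thinned members (-1.09). Under the same settings the chemokine list stood at 0.14 and 0.22, the lysosomal list at 0.092 and 0.15, and the lipid and iron list at 0.022 and 0.029.

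**Figure D5:**
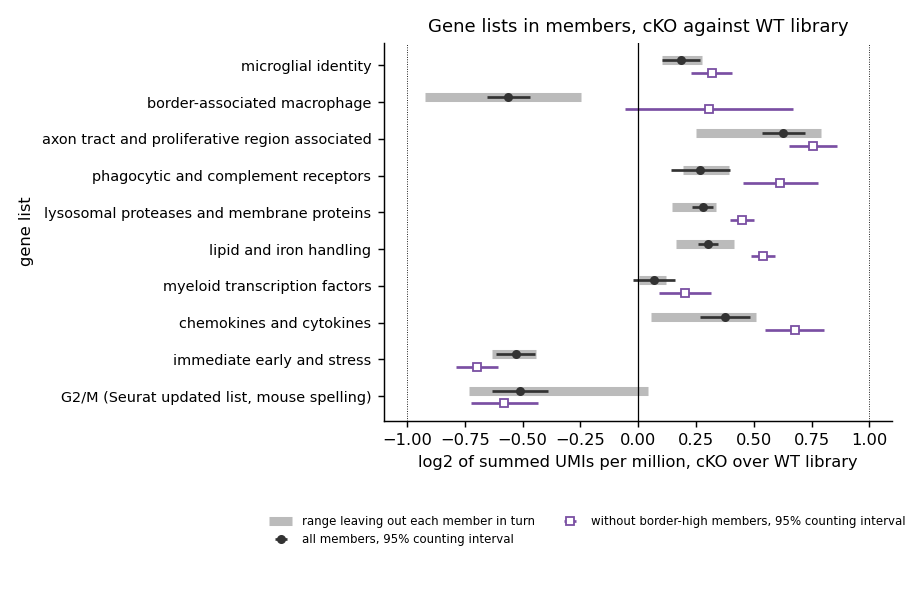
Log2 ratio of cKO over WT members of the summed CPM of 10 gene lists, with all members (filled circles), without border-high members (open squares), 95% counting intervals (lines) and the range when each member is left out in turn (grey bars). The border list moves from -0.56 to 0.31 without the border-high members, and the immediate early list stays below 0 in each of these.

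The rule genes were absent or near 0 in the cultured NPCs, where a low level could mean fewer cells or less RNA per cell. C1qa, C1qb, C1qc and Tyrobp had 0 counts in all 6 cultures of 16962903 to 22708400 counts, Fcer1g had 5 to 13 and Csf1r 0 to 4. The wider lists were not at 0, since the microglial list summed to 1951 to 3069 counts per culture and the border list to 143 to 300. Within them, P2ry12 and Pf4 had 0 counts in each culture and Cx3cr1 had 5 to 38. Apoe, which NPCs also make, had 47119 to 135479 counts, and so did not mark macrophages there.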

How the data were processed

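For each scRNA-seq library, the authors deposited a matrix of raw UMI counts, made with the 10x Genomics 3′ kit and Cell Ranger 7.0.0, and raw counts per gene for the NPC cultures, aligned to mm10 with HISAT2. The annotation behind the scRNA-seq matrices is not given in the sources used here. There were 8289 WT and 9659 cKO barcodes (100172392 and 111313526 UMIs). The study's filter (200 or more genes, no more than 10% mitochondrial) leaves 8214 and 9560, above the recovery its methods aim for. Here at least 500 genes were required. UMIs were summed over cells and divided by the total. CPM intervals are exact Poisson, ratios exact conditional and shares Clopper-Pearson intervals (95%). Of these, only the ratio intervals were checked on simulated data. The simulation drew pooled Poisson counts, without the uneven spread of UMIs over members, so it cannot show coverage for such spread. Genes needed 100 summed UMIs. Counts under 3 UMIs were read as 3 for the other cells in ratios to them, and on both sides when border-high genes were ranked. Doublets were called by Scrublet in scanpy 1.11.5 and not removed. Python 3.11.15, numpy 2.4.6, scipy 1.17.1 and pandas 2.3.3 were used. Thinning drew 2000 UMIs per cell. Named genes were those with the largest ratios, at least 100 UMIs and at most 25% of them in 1 member (25 against the other cells, which needed 20 UMIs in each library, 8 in each direction otherwise), leaving out rule, predicted, mitochondrial, haemoglobin and sex genes, plus the rule genes, Syncrip and members of the gene lists. Members, lists and rules were chosen with earlier results of these data known, and Malat1-poor members, the deepest member and the groups without neuron-rich or shallow members after the values were seen. Interferon response genes summed to 924 CPM in WT and 660 in cKO members, and to 649 and 314 CPM without border-high members. A single WT member held 133 of the 344 WT UMIs (38.7%), so the order of the libraries rests on that cell. Some named genes are not reported here.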

Additional observations from a re-analysis of the deposited data

How the results depend on the processing

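No paired analysis was possible because each genotype had 1 scRNA-seq library and the cultures were not compared by genotype. Of the values recomputed for the main results, 95 stayed within their 95% counting interval (counts of genes within 1.5 times), 40 moved out of it and 1 reversed, and of the further values 277 stayed, 48 moved and 5 reversed. The intervals of shares are wide, and the causes were not tested. With at least 5000 UMIs the share of members was 0.283% in the WT and 0.219% in the cKO library. The border-high share was 31.6% in the WT and 29.4% in the cKO library with at least 5000 UMIs, and 5 of 17 and 5 of 20 members without the Malat1-poor ones. Cycling members were 12.5% in the WT library at 1000 UMIs, 11.8% without Malat1-poor members, 12 of 24 members without thinning and 17.4% with a minimum of 4 UMIs, and in the cKO library 44.1% without thinning and 3.57% with a minimum of 4 UMIs. Genes at least 2-fold higher and lower in cKO numbered 35 and 54 at a minimum of 50 UMIs, 4 and 4 at 200, 14 and 34 by mean CPM per cell, and 1 and 1 of 143 genes after thinning. Those lower were 23 without cycling members, 9 without the 2 neuron-rich members, and 8 to 21 when each member was left out. The border list had a log2 ratio of -1.18 by mean CPM per cell, -1.09 after thinning, -0.35 without cycling members, 0.31 without border-high members, -0.45 with at least 5000 UMIs, -0.41 without Malat1-poor members, -0.69 without neuron-rich members and -0.92 to -0.25 with each member left out. The axon tract list had 0.29 by mean CPM per cell, 0.45 after thinning, 0.75 without border-high members, 0.83 without neuron-rich members and 0.25 to 0.79 with each left out. The immediate early list had -0.82, -0.75 and -0.70 under the first 3 of these, -0.39 with at least 5000 UMIs, -0.44 without Malat1-poor members and -0.63 to -0.44 with each left out. The microglial list had 0.089 without cycling members, 0.32 without border-high members and 0.10 to 0.27 with each left out. By mean CPM per cell and after thinning, the lipid and iron list had 0.022 and 0.029, the lysosome list 0.092 and 0.15, and the transcription factor list, whose interval held 0, -0.17 and -0.16. After thinning, on few UMIs, Cadm1 had 3.72, Lpl 1.83, Cd9 0.58, Cdk8 0.54, Slc12a2 0.37, Slc40a1 0.20, Lcorl -0.28, Hspa5 -0.28, Ier2 -0.38, Junb -1.61 and Dusp1 -2.51, while Lgals1, Gatm, Sod1 and Jund stayed within their intervals. Without border-high members, Slc40a1 had 2.13, Lgals1 1.82 (29 of its 60 cKO UMIs in 1 member), Dusp1 -1.73 and Jund -1.29. The phagocytosis list had 0.27 (0.14 to 0.40) over all members and 0.62 without border-high members. Besides the border list, the values that turned in sign, from ones whose counting interval did not hold 0, were as follows. They were the phagocytosis list by mean CPM per cell (-0.0078), Myo1f after thinning (-0.61), the chemokine list (-0.099) and the G2/M list (0.33) without cycling members, and the highest G2/M value with each left out (-0.73 to 0.040). Each fold rests on 1 embryo per genotype, and the median depth of cKO members was below that of WT members.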

Other observations

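Cells rich in Lyz2, the lysozyme gene of macrophages, monocytes and granulocytes, were also found outside the members, in the cKO library only as far as these 2 libraries go. With a limit of 10 UMIs chosen after the values were seen, 9 of 9286 other cells in the cKO library and 0 of 7983 in the WT library reached it. They had 19 to 61 UMIs of Lyz2 (median 36), 0 UMIs of C1qa, C1qb and C1qc, 3 to 24 of Tyrobp, Fcer1g and Csf1r, of which 1 in all was Csf1r, and 3 to 19 of the monocyte list, of which Plac8 gave 49 of 74. The microglial list summed to 2 UMIs in them and the border list to 1. S100a8 was detected in each, with 1 to 3 UMIs, and Camp and Ngp had 0. Their depth ran from 1043 to 21245 UMIs (median 2140), and up to 242 UMIs of the excitatory neuron list lay in a single one of them. They held 341 of the 370 Lyz2 UMIs in the other cells of the cKO library (92.2%), where the other WT cells had 18 in all. By the rule on C1q they are not members, and nothing in the counts of members includes them.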
